A study of Mus musculus with 3 samples.

Results

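Polycomb complex genes encode the subunits of the chromatin complexes PRC1 and PRC2. The 10 genes Ezh2, Ezh1, Eed, Suz12, Jarid2, Ring1, Rnf2, Bmi1, Cbx2 and Cbx7 were chosen by name as subunits of these complexes, out of 22350 protein-coding genes of the GENCODE M1 annotation on chromosomes 1 to 19 and X of the mouse genome build mm9. Each was assigned the H3K4me1 enriched regions that overlapped the gene or had an edge within 20 kb of any of its transcription start sites (TSS). All 10 genes were found in the annotation, 5 for PRC2 and 5 for PRC1. The study asked how inflammatory cytokines change enhancers and gene expression in pancreatic islets, the clusters of endocrine cells that contain the insulin-producing β-cells. Isolated mouse islets were left untreated or exposed for 4 days to IFNγ at 1.6 ng/ml together with IL-1β at 0.25 ng/ml and TNFα at 0.16 ng/ml. The DNA of 4 H3K4me1 ChIP experiments, made with islets of at least 10 mice, was pooled into 1 library for the cytokine treated islets. The strain is CD1 in the labels and ICR in the methods. The age is 8 to 12 weeks in the labels and 8 to 10 weeks in the methods. Untreated islets and the RNA-seq samples were not used here, so no value below is a change with cytokines and no expression level is given.

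PRC2 places methyl groups on lysine 27 of histone H3, and PRC1 binds this mark through its chromobox subunits and attaches ubiquitin to histone H2A. Both marks accompany gene repression, and in β-cells Ezh2 and Bmi1 are known to keep the cell cycle inhibitor locus Cdkn2a silent. H3K4me1, a mark of enhancers and of the borders of promoters, often surrounds an active CpG island promoter whose centre carries H3K4me3 in its place.

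The deposited list held 65709 regions with positions on a 200 bp grid and no count, height or score. Depth behind a region was therefore unknown, a distance to an edge was exact only to the grid, and a region absent from the list was not shown to lack the mark. With 1 pooled library there was no replicate, so every value is a description without a test. Of islet endocrine marker genes, 9 of 10 had a region by the same rule, all but Gcg, and 2 of 10 had one over a TSS, against 76.4% and 39.1% of all protein-coding genes. These counts do not identify the tissue. Markers of other cells also had regions, 3 of 4 acinar, 2 of 2 duct, 2 of 4 leukocyte, 2 of 2 endothelial and 1 of 2 stromal genes, with one over a TSS at 0, 2, 1, 2 and 1 of them. The part of these cells in the regions of the Polycomb genes was not tested. Marked chromatin in a few cells cannot be told apart from a weaker mark in many cells.

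The sequences printed first let starts that lay outside the regions be set beside DNA within regions next to such starts. The start of Rnf2, of which a region is printed, is not among them. Each start sequence is the 200 bases upstream of the TSS given by RefSeq, matched exactly and once to mm9 and written in the direction of transcription with every CpG in capitals. Bmi1, Ring1 and Eed had regions on both sides of the start, Jarid2 had one downstream and Suz12 had none within 2 kb. No base of these 5 sequences lay in a region.
Bmi1 start, chr2:18598445-18598644, plus strand: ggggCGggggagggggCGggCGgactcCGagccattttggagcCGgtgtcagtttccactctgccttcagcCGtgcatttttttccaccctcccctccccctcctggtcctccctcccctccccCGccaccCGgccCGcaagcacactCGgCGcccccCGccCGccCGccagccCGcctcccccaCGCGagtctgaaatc
Ring1 start, chr17:34161626-34161825, minus strand: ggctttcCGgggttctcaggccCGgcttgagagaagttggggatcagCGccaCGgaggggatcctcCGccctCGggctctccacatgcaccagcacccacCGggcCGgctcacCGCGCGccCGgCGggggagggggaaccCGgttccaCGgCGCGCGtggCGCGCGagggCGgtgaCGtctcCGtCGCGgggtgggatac
Eed start, chr7:97129487-97129686, minus strand: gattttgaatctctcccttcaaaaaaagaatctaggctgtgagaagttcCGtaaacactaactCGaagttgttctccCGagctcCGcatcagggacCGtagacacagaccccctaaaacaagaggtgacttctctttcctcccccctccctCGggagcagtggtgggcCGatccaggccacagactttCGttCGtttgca
Suz12 start, chr11:79806408-79806607, plus strand: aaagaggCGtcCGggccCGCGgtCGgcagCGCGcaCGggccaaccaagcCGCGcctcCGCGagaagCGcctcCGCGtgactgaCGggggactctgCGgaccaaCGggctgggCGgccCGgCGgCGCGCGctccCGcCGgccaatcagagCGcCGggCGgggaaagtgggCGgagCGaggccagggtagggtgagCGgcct
Jarid2 start, chr13:44825943-44826142, plus strand: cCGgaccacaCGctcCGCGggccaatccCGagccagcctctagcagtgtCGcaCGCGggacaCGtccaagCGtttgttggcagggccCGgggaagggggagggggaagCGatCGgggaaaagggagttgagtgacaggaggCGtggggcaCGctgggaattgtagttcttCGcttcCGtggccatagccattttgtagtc

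The next 3 sequences are the 200 bases nearest to the start within the first downstream region of Bmi1, Rnf2 and Jarid2, all intronic and from mm9, again with every CpG in capitals. For Jarid2 this is the whole region, a single bin of the grid.
Bmi1 region, chr2:18599601-18599800, plus strand: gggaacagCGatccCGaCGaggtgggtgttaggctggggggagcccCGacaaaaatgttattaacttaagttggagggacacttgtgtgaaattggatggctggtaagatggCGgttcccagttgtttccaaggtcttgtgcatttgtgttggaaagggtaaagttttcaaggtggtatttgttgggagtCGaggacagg
Rnf2 region, chr1:153346601-153346800, minus strand: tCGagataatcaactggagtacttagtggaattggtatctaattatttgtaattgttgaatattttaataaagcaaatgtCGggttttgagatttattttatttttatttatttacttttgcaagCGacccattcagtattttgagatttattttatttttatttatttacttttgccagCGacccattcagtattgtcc
Jarid2 region, chr13:44827801-44828000, plus strand: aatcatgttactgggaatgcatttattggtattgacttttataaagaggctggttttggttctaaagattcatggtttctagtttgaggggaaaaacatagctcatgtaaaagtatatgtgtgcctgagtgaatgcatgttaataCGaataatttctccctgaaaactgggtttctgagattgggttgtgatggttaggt

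The start sequences held 17 CpG for Bmi1, 26 for Ring1, 9 for Eed, 32 for Suz12 and 17 for Jarid2. The same 200 bases held a median of 5 CpG over the 32851 promoters of the RefSeq table, with quartiles of 2 and 13. The count for Eed lay within these quartiles. The 3 sequences inside regions held 6 CpG for Bmi1, 4 for Rnf2 and 1 for Jarid2. Of the 10 genes, 9 had an entry in the RefSeq table, and Cbx2 was not among them. These 9 are the members whose main start lay outside every region.

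The 10 genes had 58 regions, and no region was shared between members. A start is called CpG-rich where the 500 bp centred on it have an observed to expected CpG ratio of at least 0.6 and a GC content of at least 50%. Every member had at least 3 regions, as did 48.7% of all protein-coding genes and 67.3% of those with a CpG-rich start. Of all genes, 76.4% had at least 1. Suz12 reached 3 only through a region within 20 kb of the start of a nonsense-mediated decay transcript. The median was 4 regions per gene, against 2 over all protein-coding genes, 3 over the 16410 genes within the members' length range of 3.89 to 192 kb, and 3 over the 10875 genes with a CpG-rich start. Regions covered a median of 9.42 kb of a member's window, which is the gene with 20 kb around each TSS. The median was 4 kb over all genes, 4.60 kb over those in the length range and 6.68 kb over those with a CpG-rich start. With regions assigned to the closest TSS the members' median was 5.50 kb, and no background is given for that setting. As a share, a median of 20.7% of the window was covered, against 6.50%, 8% and 11.3% in these 3 backgrounds. Within the gene alone the median was 12.6%, against 4.76%, 7.23% and 12.9%, so over the gene itself the members did not stand above genes with a CpG-rich start. The windows of Ezh1, Ring1, Bmi1 and Cbx2 take in regions at neighbouring genes. At Suz12, only 1 of the 3 regions had a Suz12 TSS closest. In 8 members the covered share of the window exceeded that of the whole chromosome, and in Ezh2 and Suz12 it was below it. The same excess was present in 53.6% of all genes and 72.8% of those with a CpG-rich start.

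**Figure D1:**
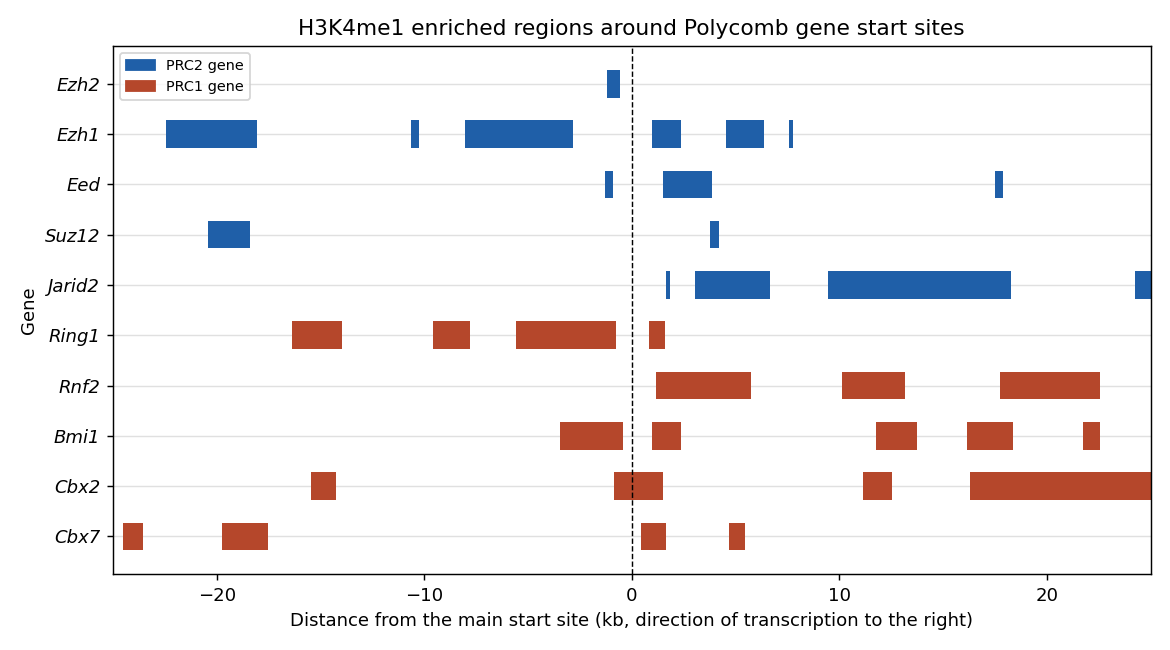
H3K4me1 enriched regions (bars) of the 10 Polycomb genes by distance from the main start site in kb, with transcription to the right and bars clipped at the plot's edges. At the dashed line, the start, a bar is present for Cbx2 and for none of the other 9 genes.

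The main start of each gene was taken as the TSS of the protein-coding transcript with the longest coding sequence, a choice made after values were seen. Of the 10 main starts, 1 lay in a region, that of Cbx2, where 31.3% of all protein-coding genes had a covered main start. Uncovered main starts with a region within 2 kb on both sides, called flanked, were found at Bmi1, Ring1 and Eed, 3 of 10 against 10.2% of all genes. The upstream region of Eed was 400 bp wide and the downstream one of Ring1 800 bp. With regions of at least 1000 bp alone, 1 member had a flanked TSS, and no share of all genes is given for that setting. A further 5 had a region within 2 kb on one side, upstream at Ezh2 and downstream at Ezh1, Jarid2, Rnf2 and Cbx7. Over all genes 17.4% were one-sided, and 70% of these had the region downstream. Suz12 alone among the members had no region within 2 kb of the main start, as did 41.0% of all genes. Among genes with a CpG-rich start, which all 10 members have, 45.3% of main starts were covered, 19.3% flanked, 24.3% one-sided and 11.1% none of these.

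Counting any annotated TSS, 2 of 10 members had a covered one, Cbx2 and Jarid2, against 39.1% of all genes and 55.3% of those with a CpG-rich main start. A flanked TSS of any kind was present in 3 of 10 members, against 12.6% of all genes and 22.2% of CpG-rich ones. A covered or flanked TSS was present in 5 of 10, against 47.3% and 70.4%. The members have 61 annotated TSS, of which 6 were covered, 8 flanked, 29 one-sided and 18 neither. Over the 70018 TSS of all genes, 31.5% were covered, 10.3% flanked and 18.5% one-sided. Neighbouring TSS of one gene share their regions, so these counts are not independent. With 10 genes, 1 gene more or less moves a share by 10 percentage points, and no difference from other genes was tested.

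**Figure D2:**
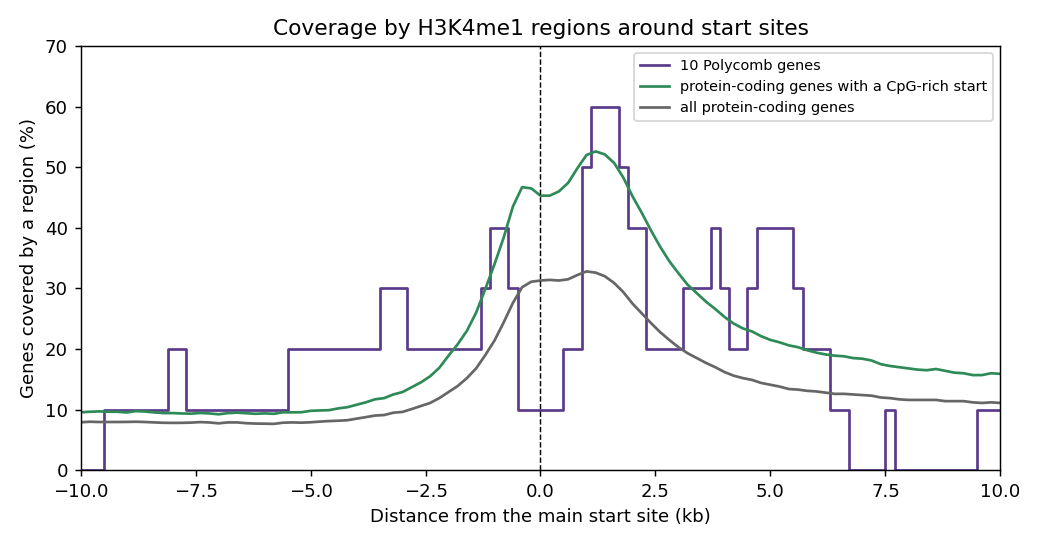
Share of genes (%) with a region at each distance from the main start (kb), for the 10 Polycomb genes, protein-coding genes with a CpG-rich start and all protein-coding genes. The Polycomb line has 1 of 10 genes at the start, reaches 4 at 1000 bp upstream and 6 at 1200 bp downstream, and each step is 1 gene.

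The plot of coverage by distance shows the same arrangement over the set. A region was present in 4 of the 10 genes at 1000 bp upstream, in 1 at the start and in 6 at 1200 bp downstream. Among genes with a CpG-rich start, 34.0% were covered at 1000 bp upstream, 45.3% at the start and 52.6% at 1200 bp downstream. Their coverage upstream was highest at 400 bp, with 46.7%.

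All 10 members had a CpG-rich main start, as did 48.7% of all protein-coding genes. The observed to expected CpG ratio ranged from 0.736 at Jarid2 to 1.11 at Ezh2, with a median of 0.875 against 0.601 over all genes. Over all genes, 91.7% of flanked main starts were CpG-rich, as were 70.3% of covered, 68.1% of one-sided and 13.2% of the remaining starts. The members' regions themselves were mostly CpG-poor, 54 of the 58 (93.1%) having a ratio under 0.6, and so were 94.4% of the 65650 regions on chromosomes 1 to 19 and X. Of the other 4, 3 were the downstream regions beyond the end of Bmi1 and 1 was the region over the start of Cbx2.

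**Figure D3:**
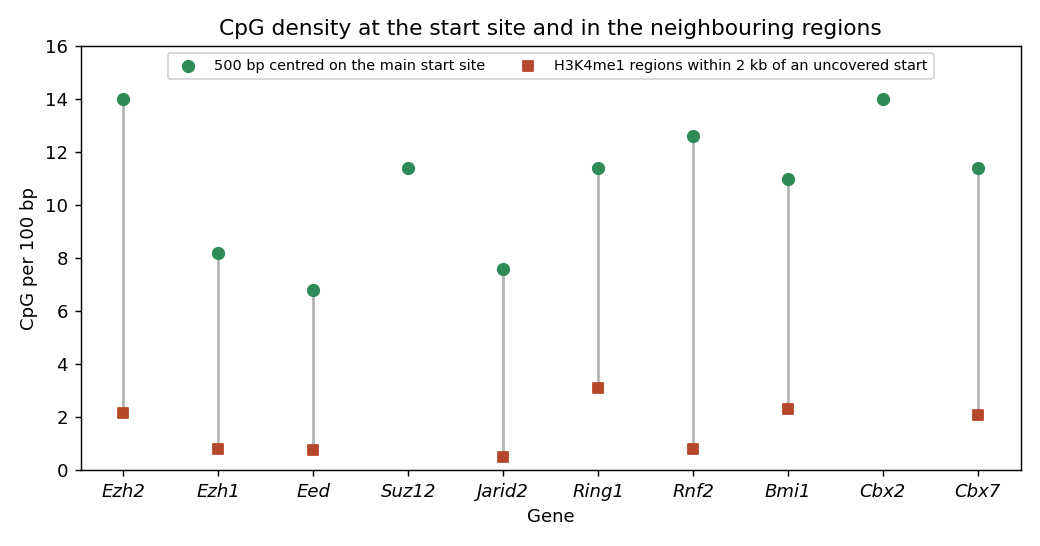
CpG per 100 bp in the 500 bp centred on the main start (circles) and in the H3K4me1 regions within 2 kb of an uncovered start (squares) for each Polycomb gene. In all 8 genes with such a region the square lies below the circle, and Suz12 and Cbx2 have no square.

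The plot of CpG density sets each start beside its own neighbouring regions. In the 8 members with an uncovered main start and a region within 2 kb, the regions held 0.5 to 3.09 CpG per 100 bp and the starts 6.80 to 14.0. The regions were poorer in CpG in 8 of 8 genes, as they were at 98.4% of the 4746 CpG-rich, uncovered main starts of all protein-coding genes with a region as near. A low CpG content of DNA outside a CpG island is usual in mammalian genomes.

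Ezh2, the main H3K27 methyltransferase of dividing cells, spans chr6:47480273-47545340 on the minus strand and had 3 narrow regions of 600, 1200 and 600 bp. The nearest ended 572 bp upstream of the main start, and downstream the next was 44629 bp away in an intron. The last lay over a coding exon near the end of the gene. Regions covered 2.40 kb, or 2.39% of the window, against 5.04% of chromosome 6, the lowest share of the 10 genes. The start of Ezh2 was the richest in CpG beside that of Cbx2, each with 70 in 500 bp.

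Ezh1, the second H3K27 methyltransferase and the one more typical of non-dividing cells, spans chr11:101052429-101087777 on the minus strand and had 8 regions. Only 3 were inside the gene, at 964, 4564 and 7564 bp downstream of the main start, with widths of 1400, 1800 and 200 bp. Upstream, a region of 5200 bp ended 2837 bp from the main start, just beyond the 2 kb limit, so Ezh1 counted as one-sided. The 5 regions outside the gene included 1 of 6200 bp over Ccr10, Cntnap1 and Plekhh3 and 1 of 4400 bp over Ramp2. For 3 of the 8 regions the closest TSS was that of Ccr10 or Ramp2. The window was covered over 20% at Ezh1 and 2.39% at Ezh2, and the gene itself over 9.62% and 2.77%, in this 1 library and without an error.

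Eed, the subunit that binds H3K27me3 and stimulates the complex, spans chr7:97103166-97129493 on the minus strand and had 3 regions. A region of 400 bp ended 908 bp upstream of the main start and one of 2400 bp began 1493 bp downstream in an intron. The uncovered interval between them, chr7:97128001-97130400, was 2400 bp wide and held 6.29 CpG per 100 bp, against 0.750 in the flanking regions. The third was an intronic region of 400 bp, 17493 bp downstream, with 0 CpG.

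Suz12, the scaffold on which PRC2 assembles, spans chr11:79806608-79847625 on the plus strand. It also had 3 regions, yet the lowest covered share of the gene itself among the members, 0.975% of its length. The nearest upstream region ended 18408 bp from the main start and had the TSS of Utp6 closest. The single region in the gene, 400 bp wide, lay 3793 bp downstream in an intron. The third, 1000 bp wide, began 49393 bp downstream of the main start, beyond the end of the gene, with a TSS of Gm16706 closest. It was within 20 kb only of the start of a Suz12 transcript annotated for nonsense-mediated decay. The main start of Suz12 was CpG-rich, with 57 CpG in 500 bp and a ratio of 0.885. Of all genes with a CpG-rich start, 11.1% likewise had no region within 2 kb.

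**Figure D4:**
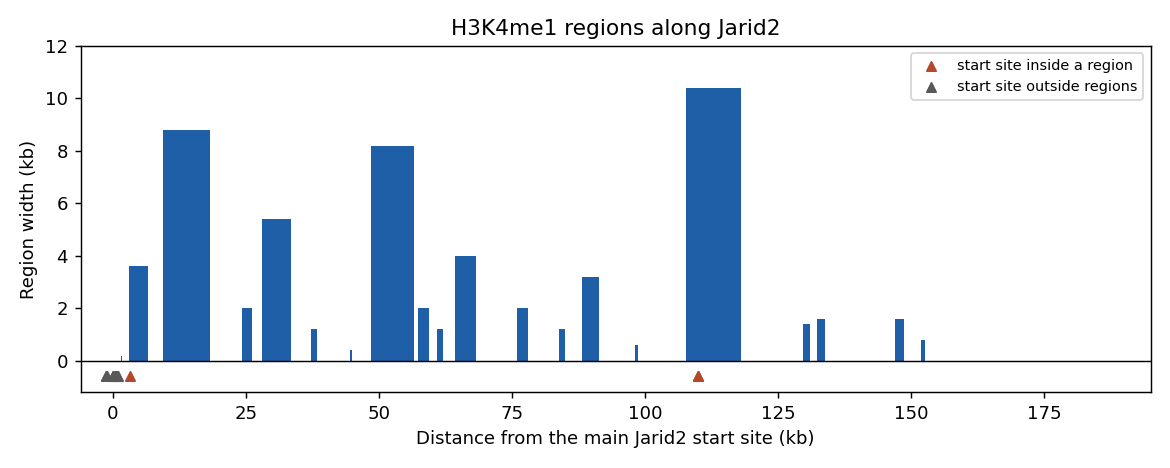
Width (kb) of the 20 H3K4me1 regions along Jarid2 by distance from its main start (kb), with bar width to scale and annotated start sites as triangles. The widest region, 10.4 kb, covers the 3 internal starts, and the 3′ end of the gene holds few regions.

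Jarid2, an accessory subunit that helps to bring PRC2 to its targets, spans chr13:44824843-45017012 on the plus strand and stood at the other end. It had 20 regions, a percentile of 99.0 among protein-coding genes with ties counted as 50% below, and all 20 lay inside the gene. They covered 59.8 kb, or 31.1% of its 192 kb. No region lay upstream of the gene within 55.0 kb. The first 14 annotated TSS lie within 5 kb of the gene's start, and 1 of them was covered, a non-coding transcript's start 3266 bp downstream of the main one. The other 3 covered starts lie together 109917 to 110040 bp downstream, inside the widest region of any member, chr13:44933801-44944200, which also overlaps a coding exon. Divided into 4 equal stretches from 5′ to 3′, the gene was covered over 45.0%, 45.4%, 29.1% and 5% of its length. Of the 20 regions, 17 were purely intronic. The closest TSS was one of Jarid2 for 13 of the 20 and that of SNORA61, a small nucleolar RNA gene, for the others. Jarid2 is the longest of the 10 genes, and per 10 kb of window it had 0.943 regions, below Ezh1, Ring1, Bmi1 and Cbx2. Without it the other 9 genes had 38 regions.

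Among the PRC1 ligases, Ring1 and Rnf2 (RING1B) each provide the catalytic RING subunit that ubiquitinates histone H2A. Ring1 spans chr17:34157737-34161625 on the minus strand and is the shortest member at 3.89 kb. A region of 4800 bp ended 776 bp upstream of its start and one of 800 bp, touching a coding exon, began 825 bp downstream. Both edges face an uncovered interval of 1600 bp, chr17:34160801-34162400, with 8.00 CpG per 100 bp against 3.09 in the flanks. All 3 regions outside Ring1 lay at starts of neighbours, with midpoints 7 bp from a TSS of H2-Ke6, 196 bp from one of Rxrb and 418 bp from one of Col11a2. The window of Ring1 was covered over 24.0%, but only 1 of its 4 regions was closest to Ring1 itself.

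Rnf2 spans chr1:153316536-153347953 on the minus strand, and its 3 regions all lay within the gene. They were 4600, 3000 and 4800 bp wide and began 1153, 10153 and 17753 bp downstream of its only annotated TSS. Together they covered 39.5% of the gene, the highest share of the 10. Upstream of the start the next region was 49648 bp away. Ring1 and Rnf2 had nearly the same covered window, 24.0% and 24.1%, at opposite sides, with 3 of 4 regions upstream at Ring1 and 3 of 3 downstream at Rnf2.

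Bmi1, a PCGF subunit found in canonical PRC1, spans chr2:18598645-18608256 on the plus strand and had 5 regions. A region of 3000 bp, which overlaps the neighbour Commd3, ended 445 bp upstream of the main start, and one of 1400 bp began 956 bp downstream. The interval between them, chr2:18598201-18599600, was the narrowest of the 3 at 1400 bp and the densest, with 186 CpG or 13.3 per 100 bp, against 2.32 in the flanks. The other 3 regions lay beyond the end of the gene, at 11756 to 22555 bp from the main start, and were closest to Gm13334 or BC061194. They held 8.10, 4.50 and 6.25 CpG per 100 bp and were, with the region over the start of Cbx2, the 4 most CpG-dense regions of the members. Beyond 20 kb the next region lay 67.2 kb from a TSS of Bmi1, the greatest distance among the members.

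Cbx2 and Cbx7 encode chromobox subunits, which bind H3K27me3 and tie PRC1 to it. Cbx2 spans chr11:118884276-118892584 on the plus strand and was the only member with the main start inside a region. That region, chr11:118883401-118885800, ran from -875 to 1524 bp relative to the start, touched a coding exon and held 6.79 CpG per 100 bp. Both annotated TSS of Cbx2 were covered. Downstream, the largest region of the window was 9400 bp wide, chr11:118900601-118910000, and overlapped Cbx8, which encodes another chromobox subunit. Only the part within 20 kb of a Cbx2 start counted towards its 9.44 kb covered.

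Cbx7 spans chr15:79746237-79801549 on the minus strand and has 6 annotated TSS, with the main one inside the gene. Of its 5 regions, 4 were intronic and 1 lay outside, and all 5 had Cbx7 as the gene with the closest TSS. The nearest began 469 bp downstream of the main start, was 1200 bp wide and held 2.08 CpG per 100 bp. On the upstream side of the main start the first region was 17532 bp away. Regions covered 9.42% of the window, the least of the PRC1 genes, where Cbx2 had 23.2%.

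By complex, the PRC2 genes had a median of 3 regions and 3.20 kb covered, and the PRC1 genes 4 regions and 9.44 kb. The covered share of the window ranged from 2.39% to 28.2% within PRC2 and from 9.42% to 24.1% within PRC1, so the complexes overlapped. Of the 58 regions, 30 lay in introns alone, 8 touched an exon, 5 of them a coding exon, and 20 lay outside the member. A member had the closest TSS for 37 of them. Over all protein-coding genes the unit was the pair of a region and a gene, 72042 in all. A region near several genes thus counted more than once. Of these pairs, 37.4% lay in introns alone, 25% touched an exon and 18.7% a coding exon. A further 37.6% lay outside the gene, and 57% of all pairs had the gene's own TSS closest. By position, 43 of the 58 regions (74.1%) were downstream of the main start, 14 upstream and 1 over it. Of the pairs over all protein-coding genes, 62.6% were downstream, 27.7% upstream and 9.72% over the main start. Jarid2 alone held 20 of the members' downstream regions and 17 of the intronic ones. Without it 23 were downstream, 14 upstream and 13 in introns alone. The members' regions were a median of 1700 bp wide (quartiles 850 and 3000 bp), against 1200 bp over all regions. The rule's limit of 20 kb passed close to some regions. The nearest excluded ones lay 22.7 kb from a TSS of Ezh2, 23.1 kb from Cbx2 and 23.9 kb from Ezh1, and the excluded neighbours of the other 7 genes were farther.

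**Figure D5:**
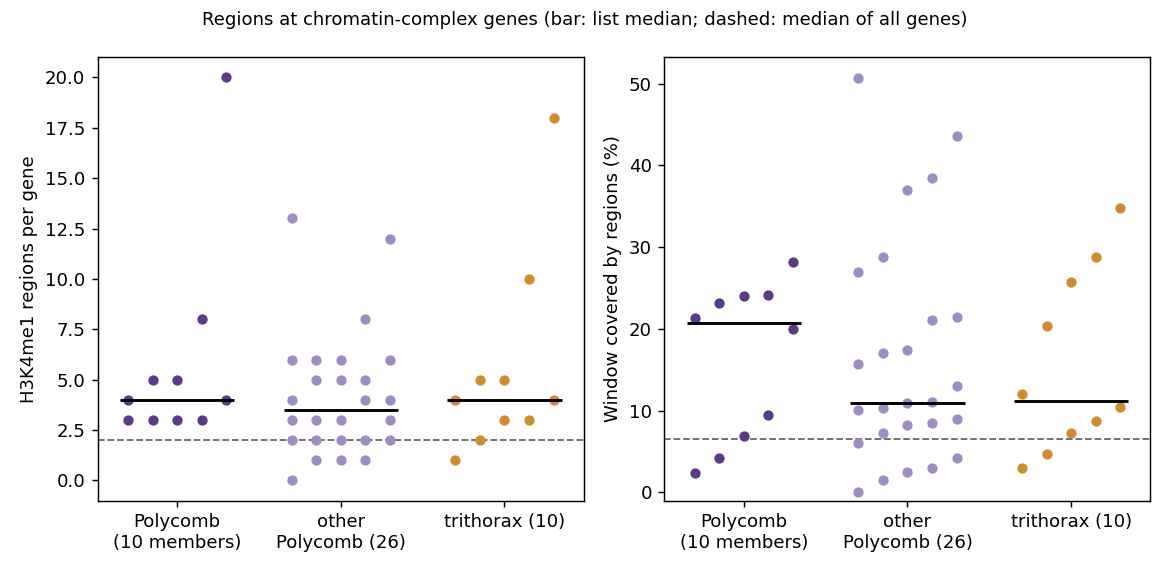
Regions per gene (left) and share of the window covered in % (right) for the 10 Polycomb genes, 26 other Polycomb genes and 10 trithorax genes, 1 point a gene, with the list median as a bar and the median of all protein-coding genes dashed. The medians of 4, 3.50 and 4 regions lie above the dashed line at 2, and the points of the lists overlap.

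Other subunits of the Polycomb system, 26 genes listed by function, had a median of 3.50 regions and 8.50 kb covered. Of these, 25 had a region, 8 had a covered main start, 5 a flanked one, 8 a one-sided one and 5 none of these, and 23 had a CpG-rich start. Rbbp7, a histone-binding subunit of PRC2, had 0 regions, on a chromosome X of which only 0.398% was covered. Bcor, of a variant PRC1, had the most with 13, also on X, and Phc2, a polyhomeotic subunit, followed with 12. The genes are long, 124 kb for Bcor and 98.1 kb for Phc2, against a median of 35.8 kb over the 26. The trithorax group works against Polycomb by methylating H3K4 or removing H3K27 methylation. Its 10 listed genes had a median of 4 regions and 8.00 kb covered, with 2 covered and 5 flanked main starts. They ranged from 1 region at Rbbp5, a core subunit, to 18 at Mll3, an H3K4 methyltransferase. Mll3 is also the longest of the 10 at 227 kb, and 10.4% of its window was covered. The medians of the 3 lists lay within 1 region of each other. The median covered share of the window was 20.7% for the 10 members, 10.9% for the other Polycomb genes and 11.2% for the trithorax genes. Within the gene the order was another, with 12.6%, 14.9% and 8.74% covered. Covered main starts numbered 1 of 10, 8 of 26 and 2 of 10. Differences between the lists were not tested.

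Short motifs were counted in the 300 bases from 250 upstream to 50 downstream of each RefSeq start, on both strands. Members were counted as genes, 9 with 10 promoters in all, since Jarid2 has more than 1. The background share is over all 32851 promoters, whatever their CpG content. The E-box CACGTG was present in 1 of 9 members, Bmi1, 215 bases upstream of its start, and in 7.15% of all promoters. The YY1 motif AANATGGC was present in 2 of 9, from 170 bases upstream in Bmi1 and from 14 upstream in Jarid2, and in 6.05% of all. In the Bmi1 and Jarid2 sequences printed above it reads gccatttt on the strand shown. Of motifs tied to the cytokines, an IRF motif, GAAANNGAA, was present in 1 of 9, Eed, 71 bases upstream, against 8.56% of all. The STAT motif TTCNNNGAA was in 0 of 9 and 8.30% of all, and the NF-κB motif GGGACTTTC in 0 of 9 and 0.353%. The ETS motif CCGGAAG was also in 0 of 9, and in 8.86% of all. None of the matches found overlapped another motif. A match describes letters and is not a bound site, and the absence of a match covers these windows alone.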

How the data were processed

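H3K4me1 was measured by ChIP-seq in 1 pooled library of cytokine treated islets. The authors mapped reads to mm9 with Bowtie2 (version 2.2.1 in the submitters' processing notes) and deposited the positions of regions called enriched with ChromHMM, whose version and settings are not given in the sources used here. The methods also describe a filter on FPKM, and whether it preceded this list is not stated. Positions are printed with 1 added to each start. Depth is unknown, so no interval was computed.

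Regions were set against all TSS of GENCODE M1 protein-coding genes (same build). The closest TSS was sought among all annotated genes, non-coding ones included. A TSS was covered when inside a region, flanked when uncovered with region edges within 2 kb on both sides. The background was all 22350 protein-coding genes. All 10 members were named. Of 26 other Polycomb genes, those with 0 regions and the 2 with the most were named, and of 10 trithorax genes those with the most and fewest. Members and lists were chosen with earlier results of these data known. RefSeq promoters (GRCm38.p6) were matched exactly to mm9, and CpG and motifs were counted from sequence. Alternatives changed the width filter, merging, TSS set, distances and assignment. Assignment and TSS states were tested on simulated data. Python 3.11.15, numpy 2.4.6, pysam 0.24.0, samtools 1.23.1 and matplotlib 3.10.9 were used. The RNA-seq samples were not analysed here.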

Additional observations from a re-analysis of the deposited data

How the results depend on the processing

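Of 46 values under the alternative settings, 41 stayed within 1.5 times the main value and 5 fell further. Keeping regions of at least 1000 bp lowered the members with a flanked TSS from 3 to 1 and those with a covered or flanked TSS from 5 to 3, because the upstream region of Eed and the downstream region of Ring1 are narrower than that. The median covered length fell from 9.42 kb to 5.80 kb with 10 kb around a TSS, a smaller window by construction. It fell to 5.50 kb when regions were assigned to the closest TSS within 100 kb, which dropped 21 of the 58 regions and added 7 others. Using the main TSS alone, an alternative added after the data were seen, left 1 member with a covered TSS in place of 2, since the covered starts of Jarid2 are alternative ones. The number of regions ranged from 43 to 80 around 58. With the starts of protein-coding transcripts alone it was 55, and Suz12 then had fewer than 3. No paired analysis was possible because the ChIP experiments were pooled into 1 library. No library could be left out, and no stricter calling threshold could be tried without scores. Depth is unknown, so regions missed for low depth cannot be counted.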
